A study of Mus musculus with 6 samples.

Results

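A set of 10 genes that mark macrophages and leukocytes was examined in bulk RNA-Seq of the mouse cardiac outflow tract (OFT) at E13.5. They were taken as the rows of the deposited count table whose Ensembl identifiers belong to *Csf1r*, *Cx3cr1*, *Adgre1*, *C1qa*, *C1qb*, *C1qc*, *Mrc1*, *Lyve1*, *Cd68* and *Ptprc*, 10 of 28777 genes listed. All 10 passed the filter on low counts, with between 90 and 1827 reads per library. The 3 libraries labelled mutant came from embryos heterozygous for a *Notch1* null allele and homozygous for a *Nos3* null allele (*Notch1*+/-; *Nos3*-/-), and the 3 labelled wildtype came from embryos described as wild type. Both alleles are germline deletions present in every cell, including blood and macrophages, all embryos were on the C57/BL6J background, and the labels name no agent. Each library pooled 3 OFTs, 18 in all, cut bluntly below the conal cushions and not sorted, so each value is an average over embryos and over cell types. In such bulk samples fewer cells of a type and less RNA per cell cannot be told apart.

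Macrophages enter the embryonic heart from the yolk sac and later from the fetal liver, and they engulf dying cells, clear matrix and settle around vessels and cushions. They depend on *Csf1r*, the receptor for the growth factors *Csf1* and *Il34*. Many resident macrophages display the fractalkine receptor *Cx3cr1* and the adhesion receptor *Adgre1* (the F4/80 antigen), and they secrete the A, B and C chains of complement C1q, which assemble together into the molecule that starts the classical complement pathway. *Mrc1* (a mannose receptor) and *Lyve1* (a hyaluronan receptor) mark a perivascular subset, but both are also made by lymphatic and some other endothelial cells. *Cd68* is a lysosomal glycoprotein of phagocytes that other cells contain at lower levels, and *Ptprc* (CD45) is a phosphatase carried by nearly all white blood cells.

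Depth was between 34729103 and 44387490 counts per library. Levels are given as CPM (read counts of a gene relative to the total of its library, per 1000000) scaled by the trimmed mean of M values (TMM). The targeted genes went in opposite directions. *Nos3* was at 31.8, 47.2 and 48.1 CPM in the libraries labelled wildtype and at 22.1, 22.0 and 20.4 CPM in those labelled mutant, whereas *Notch1* was at 74.3, 88.2 and 83.6 CPM under the wildtype label and at 155, 161 and 139 CPM under the mutant label. Since the higher *Notch1* level goes against a heterozygous null label, every direction here refers to the libraries labelled mutant or wildtype and not to a genotype. The titles and descriptions of wildtype replicates 2 and 3 give each other's library number, so these 2 replicate numbers are uncertain while their group is not. Within the wildtype label, replicates 2 and 1 stood apart. Wildtype replicate 2 had 102 CPM over 8 liver markers (such as *Alb*, the serum albumin gene), against 30.4 CPM in wildtype replicate 3 and 3.28 to 8.19 CPM in the other 4 libraries. Wildtype replicate 1 had an erythroid sum of 5420 CPM, against 11914 and 10242 CPM in wildtype replicates 2 and 3. Its mesenchymal sum was 7950 CPM, against 5367 and 4071 CPM. In both sums it was nearer to the libraries labelled mutant. These were at 6231, 6175 and 6325 CPM (erythroid) and at 8658, 9445 and 7368 CPM (mesenchymal). Without wildtype replicate 1 edgeR called 2593 genes in place of 6.

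The promoters of 6 of the 10 genes are held in the table of RefSeq promoters (GRCm38.p6), as 7 windows of 300 bases that run from 250 bases before to 50 bases after the start of transcription. Those of *C1qb*, *C1qc* and *Cd68* are shown because the C1q chains followed each other closely over the libraries (r of 0.945 for *C1qb* with *C1qc*) and *Cd68* was the only gene of the set whose groups did not overlap. Capitals mark GAGGAA or its reverse complement TTCCTC, a core motif of PU.1, the Ets factor required for macrophage identity. The windows lie on the minus strand and are printed 5′ to 3′ in the direction of the gene, at chr4:136886151-136886450 for *C1qb*, chr4:136892865-136893164 for *C1qc* and chr11:69666121-69666420 for *Cd68*.
C1qb: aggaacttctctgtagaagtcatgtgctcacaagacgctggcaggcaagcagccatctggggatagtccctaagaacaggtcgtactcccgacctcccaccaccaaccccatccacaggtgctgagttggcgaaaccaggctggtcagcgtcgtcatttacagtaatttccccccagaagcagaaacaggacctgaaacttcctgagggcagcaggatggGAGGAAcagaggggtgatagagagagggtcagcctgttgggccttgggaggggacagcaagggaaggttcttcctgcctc
C1qc: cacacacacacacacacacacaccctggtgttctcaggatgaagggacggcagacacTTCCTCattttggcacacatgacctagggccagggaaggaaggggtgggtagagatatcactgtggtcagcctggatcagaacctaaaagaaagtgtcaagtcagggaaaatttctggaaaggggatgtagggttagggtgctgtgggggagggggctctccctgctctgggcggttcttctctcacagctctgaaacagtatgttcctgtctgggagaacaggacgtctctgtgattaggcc
Cd68: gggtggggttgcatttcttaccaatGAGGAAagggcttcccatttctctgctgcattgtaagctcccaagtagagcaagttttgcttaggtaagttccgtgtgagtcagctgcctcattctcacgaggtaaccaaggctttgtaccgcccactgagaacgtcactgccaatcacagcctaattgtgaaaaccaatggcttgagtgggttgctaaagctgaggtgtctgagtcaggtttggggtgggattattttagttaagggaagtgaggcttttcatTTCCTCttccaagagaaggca

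GAGGAA on either strand was found in 5 of the 7 windows, those of *C1qb*, *C1qc*, *Cd68*, *Mrc1* and 1 of the 2 for *Ptprc*, against 28.3% of all 32851 windows. A match is a description of these letters and not of binding.

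*Csf1r*, the receptor on which macrophage survival depends, is encoded by ENSMUSG00000024621. Its annotation overlaps *Hmgxb3*, on the other strand and at 35.2 CPM, by 873 bases, so reads there are uncertain where strand was not used in counting. It was at 26.8, 44.01 and 34.2 CPM in the libraries labelled wildtype and at 29.0, 34.4 and 33.7 CPM in those labelled mutant. The 3 mutant values lay within the wildtype range. The log2 fold change of mutant over wildtype was −0.11 ± 0.16 (SE, 3 libraries against 3), with a 95% interval from 0.723-fold to 1.18-fold (adjusted p = 0.773, edgeR's quasi-likelihood test). Fold changes within that interval could not be told apart with these libraries.

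*Cx3cr1*, the receptor for the chemokine fractalkine (ENSMUSG00000052336, chr9:119901616-120069879, minus strand, mm10), was at 15.1, 19.5 and 14.1 CPM under the wildtype label and at 14.8, 14.03 and 14.5 CPM under the mutant label. The mutant libraries were within 1 CPM of each other and 5 of the 6 libraries were close, with wildtype replicate 2 above them. The log2 fold change was −0.17 ± 0.14 (SE, adjusted p = 0.569, edgeR). The annotated gene spans 168264 bases and overlaps 9 other listed genes, among them *Xirp1*, a muscle gene at 163 CPM, so reads at this locus are uncertain. *Adgre1* (ENSMUSG00000004730, chr17:57358691-57483527, plus strand) was at 6.91, 10.9 and 7.89 CPM under the wildtype label and at 7.80, 8.91 and 9.84 CPM under the mutant label. Its groups overlapped, with a log2 fold change of 0.05 ± 0.18 (SE, adjusted p = 0.929, edgeR).

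The C1q chains lie next to each other on chromosome 4. *C1qa* (ENSMUSG00000036887, chr4:136895917-136898803, minus strand) was at 10.2, 17.5 and 12.9 CPM in the libraries labelled wildtype and at 12.2, 16.8 and 14.6 CPM in those labelled mutant. *C1qb* (ENSMUSG00000036905, chr4:136880129-136886187, minus strand) was at 14.6, 27.9 and 18.9 CPM under the wildtype label and at 18.0, 22.3 and 20.2 CPM under the mutant label. *C1qc* (ENSMUSG00000036896, chr4:136889804-136893065, minus strand) was at 12.6, 22.7 and 15.7 CPM under the wildtype label and at 17.1, 20.8 and 19.3 CPM under the mutant label. In each of the 3 genes the lowest and the highest library both carried the wildtype label, replicate 1 and replicate 2, and the mutant libraries lay between them. The log2 fold changes were 0.10 ± 0.19 for *C1qa*, −0.02 ± 0.20 for *C1qb* and 0.17 ± 0.19 for *C1qc* (SE, adjusted p = 0.834, 0.975 and 0.707, edgeR).

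The summed C1q level was 51.0 ± 15.7 CPM in the libraries labelled wildtype and 53.8 ± 6.30 CPM in those labelled mutant (SD, n = 3 each). Without wildtype replicate 2 the wildtype mean was 42.4 CPM over 2 libraries, and the ratio of mutant to wildtype went from 1.05 to 1.27. The direction depended on the library left out. Wildtype replicate 1 had the lowest sum, at 37.4 CPM. Without it the log2 fold changes of *C1qa*, *C1qb* and *C1qc* were −0.067, −0.22 and −0.011 (edgeR). Divided by exon length, *C1qb* supplied 43.2 to 47.3% of the C1q signal over the 6 libraries, *C1qa* 31.0 to 34.1% and *C1qc* 21.4 to 23.9%. The order of *C1qa* and *C1qc* rests on the exon length taken, since with the longest transcript of each gene *C1qc* was above *C1qa*. The share of *C1qc* was 21.7 ± 0.309% under the wildtype label and 23.3 ± 0.596% under the mutant label (SD, n = 3 each) and its groups did not overlap. That of *C1qb* was 46.0 ± 1.17% and 43.8 ± 0.672% and did not overlap either, while that of *C1qa* did. The ratio of *Csf1r* to summed C1q was 0.694 ± 0.0418 and 0.603 ± 0.0267, and also did not overlap. These 3 ratios were chosen from 8 with the values in view, and no test was made of them. The C1q shares are parts of the same total, so those of *C1qb* and *C1qc* are not independent of each other.

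The genes of the perivascular subset were the next members. *Mrc1* (ENSMUSG00000026712, chr2:14229392-14332057, plus strand) was at 22.7, 29.4 and 22.2 CPM under the wildtype label and at 18.1, 20.6 and 28.4 CPM under the mutant label, a log2 fold change of −0.15 ± 0.17 (SE, adjusted p = 0.707, edgeR). *Lyve1* (ENSMUSG00000030787, chr7:110850607-110863239, minus strand) was at 4.77, 7.66 and 7.55 CPM under the wildtype label and at 3.85, 3.58 and 10.7 CPM under the mutant label. Mutant replicates 1 and 2 were the lowest of the 6 libraries and mutant replicate 3 the highest, 2.99-fold above the lowest. Its coefficient of variation was 43.7%, against 13.4 to 22.3% for the other 9 genes, and its log2 fold change was −0.14 ± 0.37 (SE, adjusted p = 0.890, edgeR). Without mutant replicate 3 it was −0.84 (adjusted p = 0.137, edgeR). The summed level of 7 lymphatic endothelial markers was 176, 181 and 182 CPM under the wildtype label and 170, 198 and 198 CPM under the mutant label. That of 4 sinusoidal and scavenger endothelial markers was 31.5, 51.4 and 65.0 CPM and 26.5, 21.5 and 37.5 CPM, lowest in mutant replicates 1 and 2 as for *Lyve1*, and its part in the result was not tested. *Gpr182*, an endothelial scavenger receptor, had most of the reads in that sum. In the lymphatic sum most of the reads were from *Prox1* and *Nrp2*. *Prox1* was lowest in mutant replicate 2, as *Lyve1* was, while *Nrp2* and *Ccl21a* were highest there. Under the mutant label 4 of the 7 lymphatic markers were higher and 3 lower, and their part in the *Lyve1* result was not tested.

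*Cd68* (ENSMUSG00000018774, chr11:69664213-69666153, minus strand) was the only one of the 10 whose groups did not overlap. It was at 4.99, 6.07 and 4.13 CPM in the libraries labelled wildtype and at 7.05, 7.15 and 6.37 CPM in those labelled mutant, so that the lowest mutant value was above the highest wildtype value. The log2 fold change was 0.43 ± 0.17 (SE, fold 1.35, 95% interval 1.04 to 1.76), with an unadjusted p of 0.0296 and an adjusted p of 0.269 in edgeR, and the exact permutation test gave 0.1, the smallest p that 3 libraries against 3 allow. It did not pass the test. Over all genes tested, groups did not overlap for 19.6% and the unadjusted p was under 0.05 for 16.1%, so 1 of 10 is not above the background by either count. With the replicate number as a block together with GC and length offsets the log2 fold change was 0.56 and the call changed (adjusted p = 0.0372, edgeR), under a fit that called 7.34% of all genes. With the block alone the adjusted p was 0.130, and over all the alternatives it ran from 0.0372 to 0.661. Without wildtype replicate 3, the library with the lowest value, the log2 fold change was 0.31.

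Other genes of the lysosome were listed alongside *Cd68*. Of 10 genes for lysosomal membrane proteins and enzymes, 4 were higher and 6 lower, and 0 passed the edgeR test. An unadjusted p under 0.05 was found for 1 of the 10, where 16.1% of all genes tested had one. *Lamp1*, the main lysosomal membrane glycoprotein, was at 294, 283 and 322 CPM under the wildtype label and at 250, 249 and 265 CPM under the mutant label (log2 fold change −0.24 ± 0.10, SE, adjusted p = 0.284, edgeR). Its groups did not overlap. Those of the proteases *Ctsb* and *Ctsd* also did not, with log2 fold changes of −0.08 ± 0.09 and −0.16 ± 0.10 (SE, adjusted p = 0.721 and 0.423, edgeR). That made 3 of 10, where the groups of 19.6% of all genes tested did not overlap.

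*Ptprc* (ENSMUSG00000026395, chr1:138062861-138175708, minus strand) was at 3.49, 2.58 and 2.77 CPM under the wildtype label and at 2.95, 3.66 and 3.08 CPM under the mutant label. It was lowest in wildtype replicate 2, where 7 of the other genes were highest. The log2 fold change was 0.13 ± 0.20 (SE, adjusted p = 0.801, edgeR). Its annotated exons add up to 18313 bases, the most of the 10 genes.

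**Figure D1:**
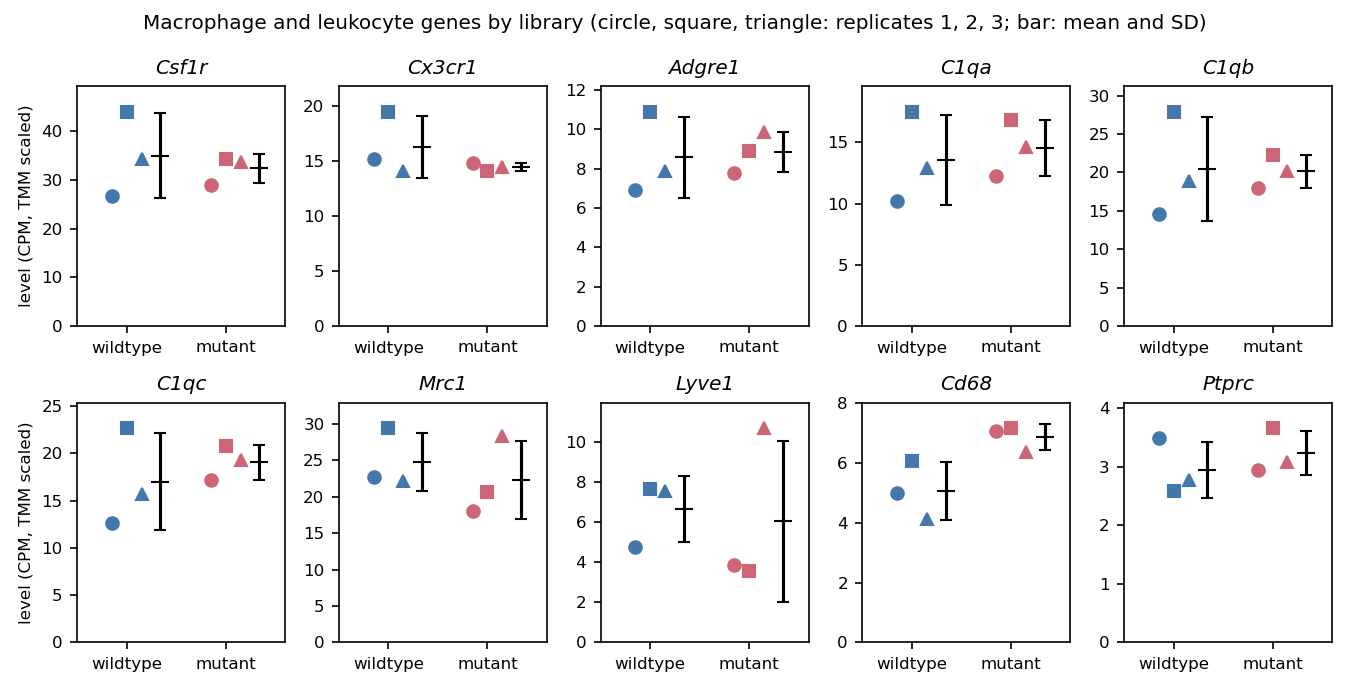
Each panel plots 1 gene, with its level in CPM scaled by TMM on the vertical axis from 0 and the groups labelled wildtype and mutant on the horizontal axis. Circles, squares and triangles are replicates 1, 2 and 3, and the bar gives the mean and SD of 3 libraries. Cd68 is the one gene with every mutant library above every wildtype library, and Lyve1 has the widest spread.

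Across the 10 genes, 5 lay higher under the mutant label and 5 lay lower, and the median of their log2 fold changes was 0.01, as it was over all genes tested (0.01). By edgeR, 0 of the 10 reached an adjusted p of 0.05 or less, against 0.0213% of all genes tested (6 of 28157). A single one, *Cd68*, had an unadjusted p below 0.05. The same test called *Notch1* (log2 fold change 0.89 ± 0.10, SE, adjusted p = 0.0313, edgeR). It did not call *Nos3* (−0.98 ± 0.15, SE, adjusted p = 0.128, edgeR). A gene that did not pass is therefore not shown to be unchanged. DESeq2's Wald test, which called 742 genes (2.64%), and limma-voom, which called 5, each called 0 of the 10. With the replicate block, which called 1577 genes (5.60%), the count was also 0, and so it was without wildtype replicate 1, a fit that called 9.45% of genes. Summed over the 10 genes the level was 150 ± 34.1 CPM under the wildtype label and 148 ± 15.3 CPM under the mutant label (SD, n = 3 each), a ratio of 0.984. Without wildtype replicate 2 the ratio was 1.13 and the median log2 fold change 0.17, and without wildtype replicate 1 the median was −0.15.

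**Figure D2:**
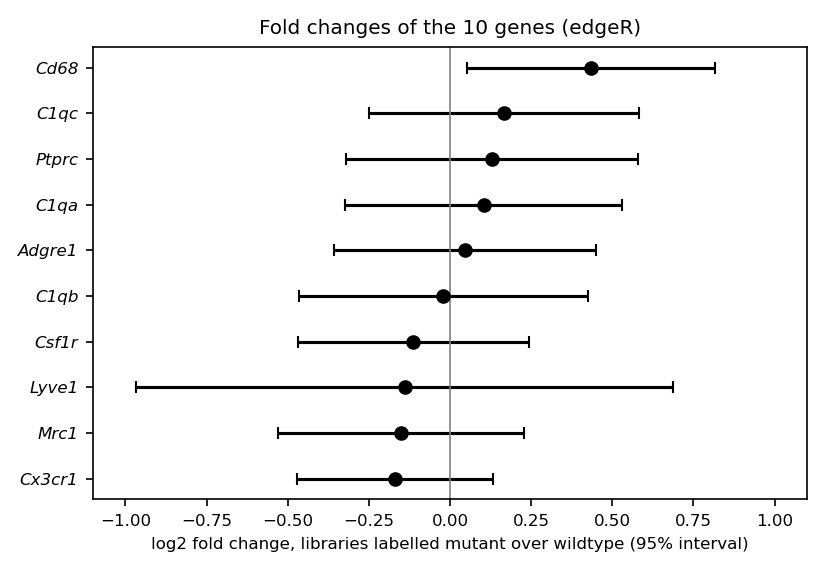
The points are log2 fold changes of libraries labelled mutant over wildtype from edgeR, for 3 libraries against 3, and the bars are 95% intervals. The interval of Cd68 runs from 1.04-fold to 1.76-fold, and those of the other 9 genes include 0.

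The 10 genes were put in order of level per length, as CPM per kb of annotated exon. *C1qb* was the highest at 18.7, followed by *C1qa* at 13.51, *C1qc* at 9.34, *Csf1r* at 5.83, *Cd68* at 4.74, *Mrc1* at 3.70, *Cx3cr1* at 3.41, *Adgre1* at 2.69, *Lyve1* at 2.17 and *Ptprc* at 0.169 (means of 6 libraries). Neighbours in this order overlapped in their ranges over the libraries, except *Lyve1* and *Ptprc*. Compared within each library, the higher gene was above its neighbour in all 6 for *C1qb*, *C1qa*, *C1qc*, *Cx3cr1* and *Lyve1*. *Csf1r*, *Cd68* and *Mrc1* were above theirs in 5 libraries, and *Adgre1* was above *Lyve1* in 4. Divided by the longest transcript, *C1qc* was at 14.99 and *C1qa* at 13.51, so that they changed places at ranks 2 and 3, and *Ptprc* was at 0.538, still the lowest.

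**Figure D3:**
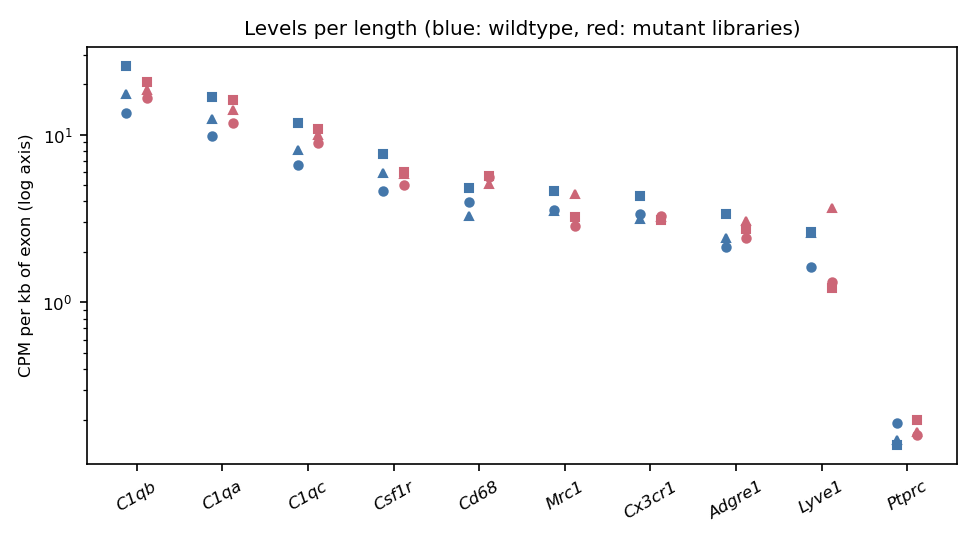
The vertical axis is CPM per kb of exon on a log scale, with the 10 genes in order of their mean and 1 point per library, blue for wildtype, red for mutant, and the shapes for replicates as in the plot by library. C1qb is highest at a mean of 18.7 and Ptprc lowest at 0.169, apart from its neighbour.

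Libraries of 1 label differed among themselves. Wildtype replicate 2 was the highest of the 6 libraries for 7 of the 10 genes, *Csf1r*, *Cx3cr1*, *Adgre1*, the 3 C1q genes and *Mrc1*, where 17.0% of all genes tested were highest in that library. Wildtype replicate 1 was the lowest for 5. The median deviation of the 10 genes from their means was −0.30 on the log2 scale in wildtype replicate 1 and 0.35 in wildtype replicate 2, and between −0.14 and 0.11 in the other 4 libraries. In wildtype replicate 2, 7 of 8 liver markers, 8 of 10 erythroid markers and 4 of 5 epicardial markers were highest as well. The liver sum there was 102 CPM. The erythroid sum was 11914 CPM there, 5420 and 10242 CPM in wildtype replicates 1 and 3 and 6175 to 6325 CPM in the libraries labelled mutant. In wildtype replicate 3, where the liver and erythroid sums were the second highest, the summed level of the 10 genes was 140 CPM, below 2 of the 3 mutant libraries. The part of these markers in the result was not tested.

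**Figure D4:**
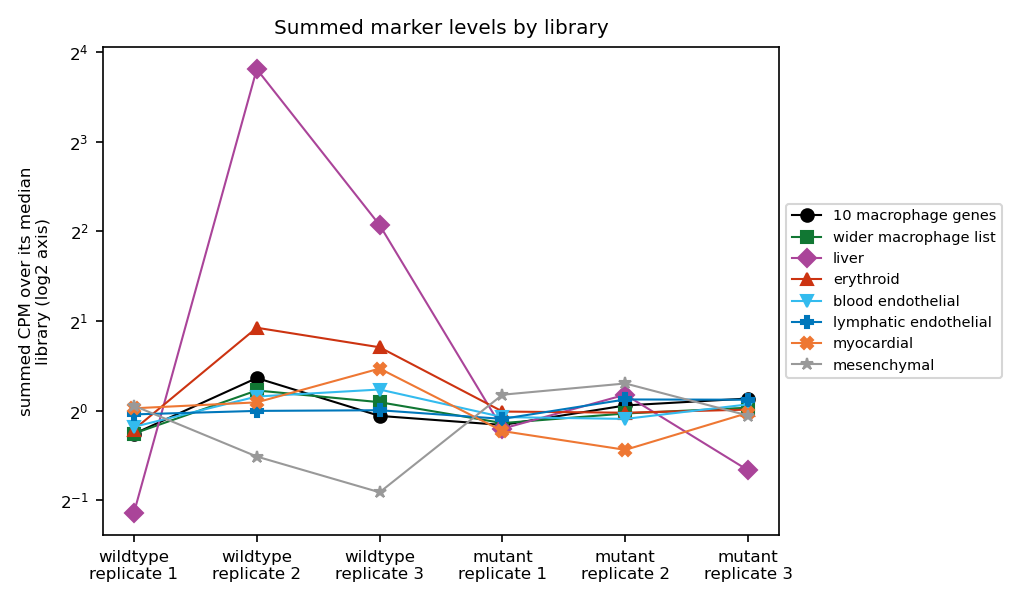
The vertical axis, on a log2 scale, is the summed CPM of each marker list divided by its median library, and the horizontal axis gives the 6 libraries. The liver list rises to 102 CPM in wildtype replicate 2 from 3.28 CPM in wildtype replicate 1, while the 10 macrophage genes range from 122 to 188 CPM.

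A group of 5 genes followed each other closely over the libraries. Pearson's r of log2 CPM over the 6 libraries, which share depth and dissection, was 0.967 for *C1qa* with *C1qc*, 0.958 for *C1qa* with *C1qb* and 0.957 for *Csf1r* with *C1qb*, and among *Csf1r*, *Adgre1* and the C1q genes the lowest r of a pair was 0.828. *Mrc1* and *Lyve1* had an r of 0.831 with each other, while *Lyve1* had an r of 0.193 to 0.285 with the C1q genes. Against the mean of the other 9, r was 0.994 for *Adgre1*, 0.515 for *Cx3cr1*, 0.299 for *Lyve1*, 0.188 for *Cd68* and −0.517 for *Ptprc*. *Ptprc* had a negative r with 8 of the other 9 genes, *Cd68* being the exception. These are descriptions of 6 libraries.

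**Figure D5:**
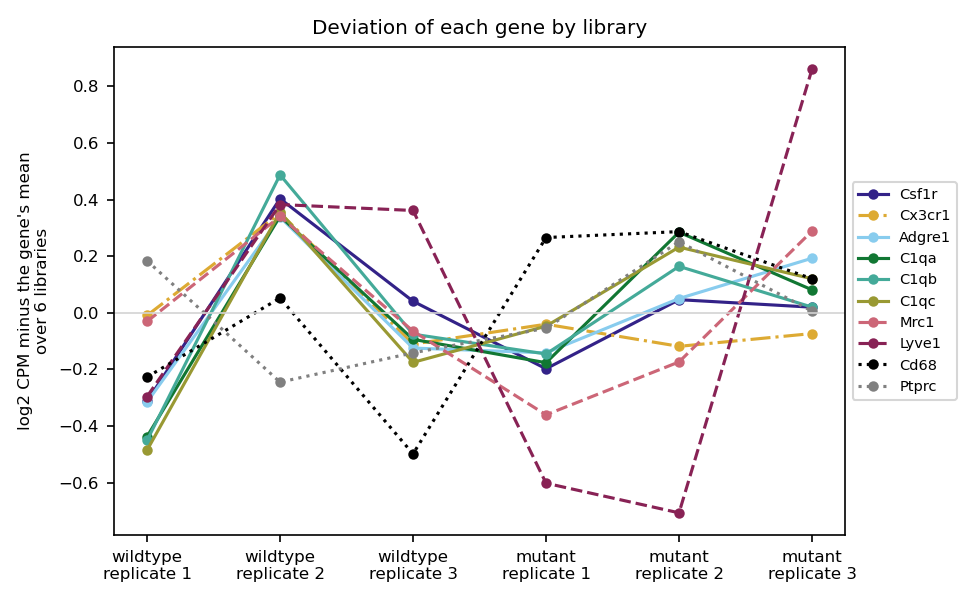
Each line is 1 gene, and the vertical axis is log2 CPM minus the mean of that gene over the 6 libraries on the horizontal axis. The C1q genes, Csf1r and Adgre1 run together with a low in wildtype replicate 1 and a peak in wildtype replicate 2, Lyve1 (dashed) peaks in mutant replicate 3, and Cd68 and Ptprc (dotted) follow courses of their own.

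Among 16645 other genes averaging 1 CPM or more, those most like the mean of the 10 genes were *P2ry6* (r = 0.986), *Tmem129* (0.983), *Gm5981* (0.978), *Cd52* (0.976) and *Cd300c2* (0.969), by Pearson's r over 6 libraries. *P2ry6* is a nucleotide receptor of phagocytes, and *Cd52* and *Cd300c2* are leukocyte surface proteins. *P2ry6* was at 2.63, 4.24 and 2.87 CPM under the wildtype label and at 2.80, 3.42 and 3.58 CPM under the mutant label, lowest and highest in the same wildtype libraries as the C1q genes. *Tmem129* varied little, by 1.06-fold over the libraries. An r above 0.5 was found for 21 of 39 other macrophage genes (53.8%) and for 2009 of the 16645 genes (12.1%).

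These 39 genes were 10 transcription factors and 29 other genes of macrophages, and under the mutant label 16 lay higher and 23 lower, around a median of −0.04 (log2). By edgeR 0 of them passed, and 1 was below 0.05 before adjustment, where 16.1% of all genes tested were. With the replicate block the number called was 2, where 5.60% of all genes were called, and by DESeq2 it was 1, where 2.64% were. Of the transcription factors, 3 were higher and 7 lower. *Runx1*, needed for the birth of blood cells, was chosen after its values were seen, since the block called it. It was at 2.92, 1.81 and 0.59 CPM under the wildtype label and at 3.75, 3.55 and 2.31 CPM under the mutant label, so the groups overlapped, and its log2 fold change was 0.83 ± 0.43 (SE, adjusted p = 0.366, edgeR) or 1.00 with the block (adjusted p = 0.0323, edgeR). This call was lost with the numbers of the sample descriptions as the block (adjusted p = 0.246, edgeR).

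*Lyz2*, the lysozyme gene of macrophages and neutrophils, had the smallest adjusted p of the 39 genes. It was at 20.6, 24.1 and 47.5 CPM in the libraries labelled wildtype and at 13.1, 10.03 and 14.6 CPM in those labelled mutant, and the groups did not overlap. Its log2 fold change was −1.28 ± 0.27 (SE, adjusted p = 0.165, edgeR) and −1.21 with the replicate block (adjusted p = 0.000153, edgeR, or 0.0377 with the numbers of the sample descriptions). DESeq2 also called it (adjusted p = 0.000474), as did edgeR without wildtype replicate 1 (adjusted p = 0.0189), whereas without wildtype replicate 3, its highest library, the log2 fold change was −0.83 (adjusted p = 0.316, edgeR). Markers of neutrophils summed to 0.22, 1.71 and 1.45 CPM under the wildtype label and to 1.05, 0.45 and 0.24 CPM under the mutant label over 6 listed genes, of which 5 lay lower. All 6 averaged under 1 CPM, and 4 had no read in some library. Among them *Ltf*, the lactoferrin gene, chosen after its values were seen, was highest in wildtype replicate 3, as *Lyz2* was. It was at 0.20, 0.26 and 0.49 CPM under the wildtype label (9, 11 and 16 reads). Under the mutant label it was at 0.025, 0.080 and 0.080 CPM (1, 3 and 3 reads). *Ngp* had reads in wildtype replicate 3 alone. *S100a8* and *S100a9* were highest in mutant replicate 1, *Mpo* in wildtype replicate 2 and *Camp* in mutant replicate 2. The part of neutrophils in the *Lyz2* result was not tested.

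The ligands of the receptors were also measured. *Csf1*, the ligand of *Csf1r*, was at 16.2, 19.5 and 15.9 CPM under the wildtype label and at 19.6, 20.7 and 20.8 CPM under the mutant label (log2 fold change 0.24 ± 0.11, SE, adjusted p = 0.332, edgeR). *Il34*, its other ligand, was at 0.40 CPM or less in every library. *Cx3cl1*, the ligand of *Cx3cr1*, was at 8.86, 9.18 and 13.8 CPM under the wildtype label and at 8.30, 8.11 and 8.04 CPM under the mutant label (log2 fold change −0.38 ± 0.18, SE, adjusted p = 0.325, edgeR). The groups of 2 of the 3, *Csf1* and *Cx3cl1*, did not overlap, where those of 19.6% of all genes tested did not, and 0 of the 3 passed the edgeR test, with 0 at an unadjusted p under 0.05. Of 13 listed complement genes, 6 were higher and 7 lower, and 0 passed the edgeR test. An unadjusted p under 0.05 was found for 1 of the 13, where 16.1% of all genes tested had one.

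Markers of other blood cells were summed in the same way. T and NK cell markers summed to 0.20 to 0.46 CPM over 4 listed genes, monocyte markers to 1.36 to 2.70 CPM over 4 and B cell markers to 2.05 to 3.66 CPM over 4. Dendritic cell markers summed to 17.9 to 22.1 CPM over 6, with most of the reads from *Zbtb46*, which endothelial cells also make, and mast cell markers to 20.2 to 25.6 CPM over 6, with most of the reads from *Gata2*, which endothelium also makes. Megakaryocyte markers summed to 34.2 to 43.6 CPM over 7, with most of the reads from *Itgb3*, an integrin that other cells also make. *Clec9a*, a dendritic cell receptor, was at 1.08, 1.33 and 0.80 CPM under the wildtype label and at 1.75, 1.65 and 2.36 CPM under the mutant label (log2 fold change 0.84 ± 0.29, SE, adjusted p = 0.233, edgeR). Of the 6 dendritic cell markers, 3 lay higher under the mutant label and 3 lower. *Clec9a* was the only 1 of the 6 whose groups did not overlap, where those of 19.6% of all genes tested did not. The OFT tissue itself was present under both labels, with blood endothelial markers at 918 to 1226 CPM, smooth muscle markers at 2453 to 3447 CPM, mesenchymal markers at 4071 to 9445 CPM and myocardial markers at 15105 to 28321 CPM. The myocardial sum was 20830, 21809 and 28321 CPM under the wildtype label and 17465, 15105 and 20104 CPM under the mutant label, and its part in the values of the macrophage genes was not tested. In each of the 22 lists 0 genes passed the edgeR test. An unadjusted p under 0.05 was found for 16.1% of all genes tested. It was found for 8 of 10 erythroid, 6 of 8 liver and 7 of 10 myocardial markers, all lower under the mutant label. The same held for 3 of 7 megakaryocyte and 2 of 4 sinusoidal and scavenger endothelial markers, also all lower, and for 5 of 7 mesenchymal markers, all higher. Of 6 smooth muscle markers 3 had such a p, and of 7 lymphatic endothelial markers 2, in both directions. No other list had more than 1.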

How the data were processed

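Each of the 6 libraries was made by the authors from total RNA of 3 pooled OFTs with a stranded, ribosome-depleted kit and paired-end 50 bp reads. Reads were mapped by the authors with TopHat2 2.1.0 and Bowtie2 (per the labels) on mm10, and reads on exons were counted with GenomicAlignments. The deposited values are counts per gene without normalization. The annotation release, strand setting and treatment of overlapping genes are not given in the sources used here.

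The analysis used edgeR 4.0.16, limma 3.58.1 and DESeq2 1.42.0 under R 4.3.3. Genes with more than 5 reads in all were kept (28157 of 28777) and scaled by TMM. The quasi-likelihood test of edgeR was the test over all genes, with p-values adjusted by Benjamini-Hochberg over all of them, and a gene was called when its adjusted p was 0.05 or less. The fit had a biological coefficient of variation of 0.17 and 6.67 prior degrees of freedom. Single genes were also compared by a two-sided exact permutation test of log2(CPM + 0.5). Errors cover the spread between libraries and p-values measure only that. Positions and exon lengths came from GENCODE, which holds 28723 of the identifiers. The code was tested on simulated counts.

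The 10 member genes and the 22 gene lists were chosen with earlier results of these data known. Named genes are the 10 members, their ligands, *Notch1* and *Nos3*, per list the called genes, up to 5 averaging 1 CPM or more with the largest changes among groups that do not overlap, and the most abundant gene per length, and the 5 genes most alike. For lists of other tissues only sums or counts are printed. *Runx1*, *Prox1*, *Ltf* and other neutrophil markers were named outside this rule. Of the list entries, 9 matched no row and were not used here. One gene that this rule names is not reported here.

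Alternatives were limma-voom, DESeq2, other scalings and filters, GC and length offsets, a replicate block, and each library left out. The replicate block treated the replicate numbers of the titles as pairs. Deviations of same-numbered libraries from their group means correlated at r = 0.106, 0.152 and 0.433. Differently numbered libraries ranged up to r = 0.294, for wildtype replicate 1 with mutant replicate 2, above 2 of the 3 pairs. Neither the labels nor the methods state this pairing. These correlations do not establish it, and they come from the same values that the fits with the block test.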

Additional observations from a re-analysis of the deposited data

How the results depend on the processing

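All 10 alternatives were run, with the 6 libraries left out in turn as one of them. Blocking by the numbers in the sample descriptions was added after the data were seen. Over 16 settings, 143 of 160 fold changes of the 10 genes kept their sign and 1 was called, that of *Cd68*.

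The count of genes called over all genes tested was 742 by DESeq2, 1577 with the replicate block, 2068 with the replicate block and GC and length offsets, 83 with the block by the descriptions, and 1 to 2593 with a library left out, 2593 being without wildtype replicate 1. The number of the 10 genes called was 1 with the block and the offsets. Of the 39 genes of the wider macrophage list, 1 was called by DESeq2, 2 with the replicate block and 2 with the block and the offsets. These fits called 2.64%, 5.60% and 7.34% of all genes tested. With the block by the descriptions 1 of the 39 was called. With a library left out the count was 0 to 1, the 1 being without wildtype replicate 1, where 9.45% of all genes were called. The replicate block changed no other call among these genes. The cause of these differences was not tested.

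*C1qb* turned positive under limma-voom (0.026), library size only (0.089), the replicate block (0.022), GC and length offsets (0.078), the block with the offsets (0.097) and the block by the descriptions (0.024). With a library left out the log2 fold changes ran from −0.27 to 0.086 for *Csf1r*, −0.088 to 0.26 for *Adgre1*, −0.067 to 0.33 for *C1qa*, −0.22 to 0.27 for *C1qb*, −0.011 to 0.43 for *C1qc* and −0.84 to 0.13 for *Lyve1*, and kept their sign for *Cx3cr1*, *Mrc1*, *Cd68* and *Ptprc*. Scaling by library size only moved the median of all genes to 0.11 from 0.01 and that of the 10 genes to 0.12. Counting limits *Ptprc* most, with 90 to 155 reads per library, and 3 libraries a group limit all 10 genes.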
